A study of Homo sapiens with 36 samples.

Results

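The 36 genes described here act in homologous recombination and in the Fanconi anaemia pathway of DNA repair, and were taken by symbol from the 58243 genes of the deposited count table. All 36 were found, and all 36 had enough counts to be tested in each of the 3 cell lines. Homologous recombination mends broken chromosomes by copying the intact sister strand, so it works mainly in cells that have replicated their DNA. Ends are cut back to single strands, BRCA1, PALB2 and BRCA2 prepare these for pairing with the sister, and the joined molecules are then taken apart by helicases and nucleases. The Fanconi pathway detects crosslinks between the strands, attaches ubiquitin to the paired proteins FANCD2 and FANCI, and hands the cut DNA to recombination. Inherited loss of several of these genes, BRCA2, PALB2 and ATM among them, raises the risk of pancreatic cancer.

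Total RNA of 3 established lines of human pancreatic ductal adenocarcinoma, PANC-1, MIA PaCa-2 and BxPC-3, was sequenced. Each line received 3A4, 1E5, GW3965 or the solvent DMSO, with ligands at 10 µM for 48 h, in 3 libraries per group and 36 libraries in all. GW3965 is a synthetic agonist of the liver X receptors (LXR), nuclear receptors for oxysterols, and the labels call 1E5 and 3A4, known here by code name, LXR inverse agonists. The medium was RPMI for BxPC-3 but DMEM for MIA PaCa-2 and PANC-1, with 10% serum throughout, so line and medium cannot be told apart. The sample titles call the replicates "bio rep", but whether they were separate cultures is not stated in the labels. The p-values therefore reflect only how much these libraries vary.

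Libraries held 14960970 to 26026684 counts in PANC-1, 2701393 to 25503827 in MIA PaCa-2, and in BxPC-3 they held 19605935 to 25888304. Depth differed with treatment in MIA PaCa-2, at 23675670 to 25503827 counts with 1E5 against 3609582 to 10996848 with DMSO. The epithelial keratins KRT8, KRT18 and KRT19 were present in every line, whereas EPCAM and CDH1 were under the count filter in MIA PaCa-2. KRT7, another epithelial keratin, had a median over libraries of 0.649 CPM in MIA PaCa-2, 5.83 CPM in PANC-1 and 1780 CPM in BxPC-3. The mesenchymal gene VIM had medians of 8141, 2870 and 19.6 CPM in the same lines, and ZEB1 had 68.6, 39.3 and 0.799 CPM. The mesenchymal gene FN1 went the other way, with 0.777, 2.68 and 56.6 CPM. CDH2 was under the count filter in MIA PaCa-2 and had 69.1 CPM in PANC-1 and 3.77 CPM in BxPC-3. The summed level of 13 marker genes of immune, endothelial, fibroblast and red cells was 15.3 to 38.9 CPM (counts scaled to a library total of 1000000) with 1E5, against 279.9 to 299.8 CPM with DMSO, in MIA PaCa-2. It was 52.9 to 82.4 CPM with 1E5, against 69.5 to 191.9 CPM with DMSO, in PANC-1. With DMSO in MIA PaCa-2, COL1A2 had the highest mean of the list, at 247.0 CPM, before CDH5 at 23.7, CD14 at 17.3 and CD68 at 10.3 CPM. In PANC-1 with DMSO, COL1A1 had the highest, at 101.7 CPM, before CD68 at 11.9 CPM. PTPRC, CD3E, PECAM1, VWF, DCN and HBB were at 0 in all 3 libraries of both groups in each of these lines. The part of such markers in the results was not tested.

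Reads of overlapping genes can be shared, and the strand setting of the counting is not given in the sources used here. Of the 36 genes, 22 share exon sequence with another gene, and for 13 the partner held at least 0.1 of their counts. Some partners held far more than the member. LRRC59 held 26.61 times the counts of EME1, CFL1 14.03 times those of MUS81, STT3A 5.697 times those of CHEK1 and KLC1 4.307 times those of XRCC3. The pairs on the same strand are BRCA1 with AC060780.1, RAD54B with FSBP, and CHEK1 with STT3A. On opposite strands lie EME1 with LRRC59, XRCC3 with KLC1, RAD54L with LRRC41, FANCL with VRK2, MUS81 with CFL1, ATM with NPAT and CHEK2 with HSCB, among others. The values of these genes are uncertain to that extent. With 1E5 against DMSO, LRRC59 had a log2 fold change of 0.40 in MIA PaCa-2 cells and 0.15 in PANC-1. KLC1 had 0.13 and 0.21, and LRRC41 had 0.18 and 0.56, in the same order of lines. AC060780.1 had 1.58 and 1.01, opposite in sign to BRCA1 described below. STT3A had −0.30 (edgeR adjusted p = 0.0865) and 0.63 (edgeR adjusted p = 0.00226), where CHEK1 had −0.41 and −0.54. FSBP, which held 2.165 times the counts of RAD54B, had 3.63 ± 1.49 (edgeR adjusted p = 0.0624) and 0.59 ± 0.21 (edgeR adjusted p = 0.0425), where RAD54B had −2.01 and −0.46. HSCB and CFL1 were opposite in sign to CHEK2 and MUS81 in both lines. Some other partners had the sign of the member. NPAT had 0.63 (edgeR adjusted p = 0.0687) and −0.49 (edgeR adjusted p = 0.0196), where ATM had 1.00 and −0.09. POLG had −0.63 and −0.34, as FANCI fell in both lines, and ZNF276 had −0.48 (edgeR adjusted p = 0.201) and −0.74 (edgeR adjusted p = 0.0227), as FANCA fell.

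The response of the repair genes was concentrated in 1E5-treated MIA PaCa-2 and PANC-1 cells, where most members with a call were lower than with DMSO. A call means an adjusted p below 0.05 in edgeR's quasi-likelihood test, with Benjamini-Hochberg adjustment across every gene tested in that line. In MIA PaCa-2, 24 of 36 members passed with 1E5 against DMSO, 6 higher and 18 lower, where 47% of all genes tested passed, 23.6% higher and 23.4% lower. In PANC-1, 25 of 36 passed, 4 higher and 21 lower, where 39.1% of all genes passed, 19.7% higher and 19.3% lower. Thus 50.0% and 58.3% of the members were called lower in these lines. The median log2 fold change of the members was −0.58 in MIA PaCa-2 cells and −0.66 in PANC-1, beside 0.05 and 0.02 over all genes tested. Less RNA of a gene per cell and fewer cells that express it cannot be told apart in such bulk samples.

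**Figure D1:**
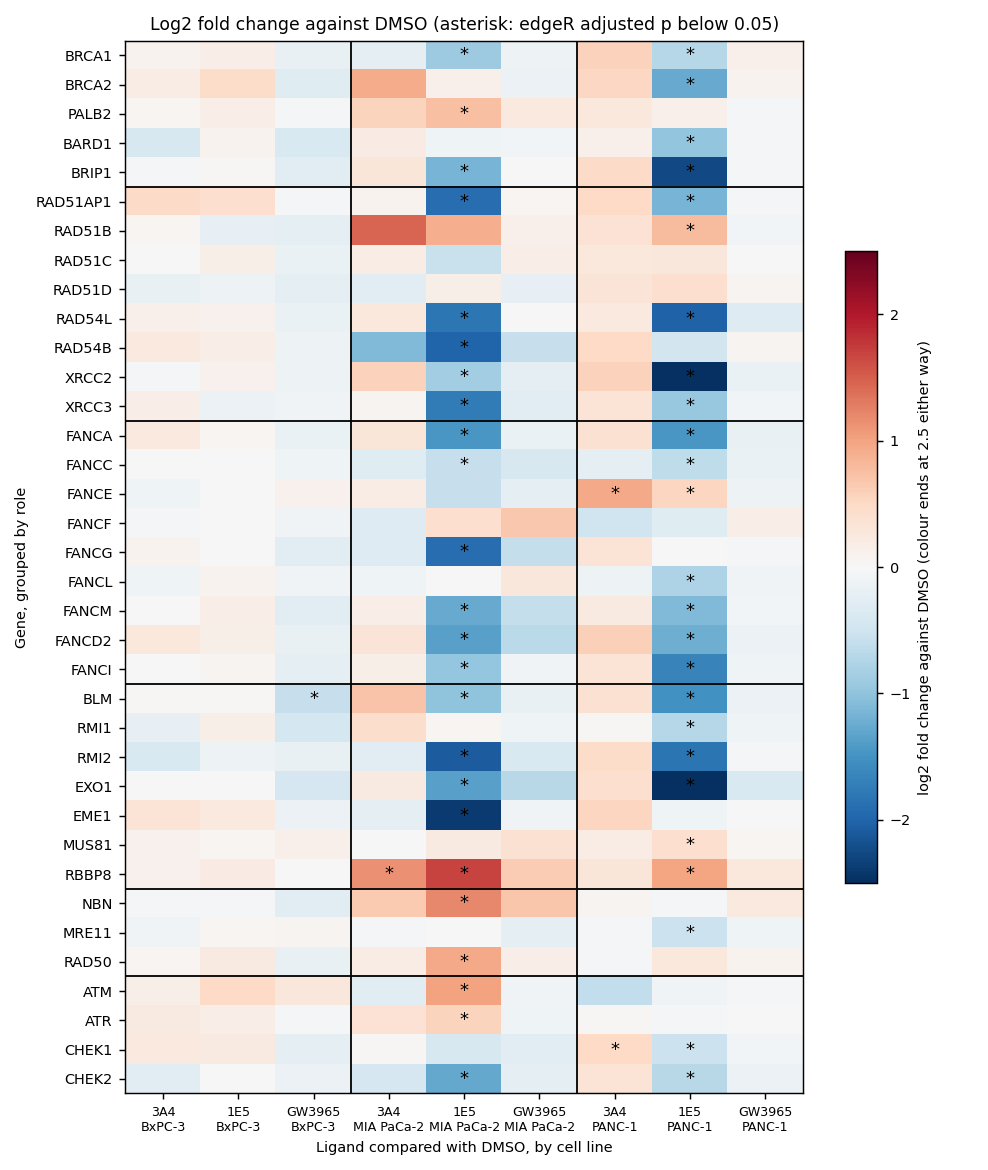
Log2 fold change against DMSO of the 36 genes (rows, ordered by role) for 3A4, 1E5 and GW3965 in each line (columns), with colour for the log2 value and an asterisk where edgeR's adjusted p was below 0.05. The asterisks gather in the 1E5 columns of MIA PaCa-2 and PANC-1, with 24 and 25, while the BxPC-3 columns hold 1, for BLM with GW3965.

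The promoters of EXO1, XRCC2, FANCD2 and FANCC, all called lower with 1E5 in both lines, hold a spelling of the E2F site, the element bound by the E2F factors that time genes to S phase. Their promoter stretches are printed because, of the 32 members with promoter sequence, these 4 hold such a spelling. BRCA1, BRIP1, RAD51AP1, RAD54L, XRCC3, FANCA, FANCM, BLM and CHEK2, also called lower in both lines, had promoter sequence without it. The capitals mark the spelling on either strand. Sequences are from RefSeq on GRCh38.p14, 5′ to 3′ on the strand of the gene, with the annotated start as position 0.
EXO1, chr1:241848104-241848218, plus strand: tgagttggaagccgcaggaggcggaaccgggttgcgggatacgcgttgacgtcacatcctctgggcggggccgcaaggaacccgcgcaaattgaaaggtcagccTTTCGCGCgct
XRCC2, chr7:152676113-152676241, minus strand: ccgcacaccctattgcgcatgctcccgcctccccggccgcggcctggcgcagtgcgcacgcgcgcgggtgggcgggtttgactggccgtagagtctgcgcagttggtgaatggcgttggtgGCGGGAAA
FANCD2, chr3:10026337-10026449, plus strand: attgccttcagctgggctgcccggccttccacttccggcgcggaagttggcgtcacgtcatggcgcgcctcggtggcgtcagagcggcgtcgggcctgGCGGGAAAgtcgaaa
FANCC, chr9:95317710-95317889, minus strand: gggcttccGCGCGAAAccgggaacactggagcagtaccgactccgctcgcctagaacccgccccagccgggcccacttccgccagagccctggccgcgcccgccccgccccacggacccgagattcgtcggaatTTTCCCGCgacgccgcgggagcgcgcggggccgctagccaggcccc

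The spelling begins at position 4 in EXO1, 21 in XRCC2, −2 in FANCD2, and −172 and −46 in FANCC. Windows of 300 bases were present for 32 of the 36 members, 44 windows in all since some genes have several starts. The E2F spellings searched, TTTCGCGC, TTTGGCGC and TTTCCCGC on both strands, were in 4 of the 44 windows (9.09%), against 2.74% of the 35116 windows of all genes. CCGGAAG, a spelling of the ETS factor site, was in 11 of 44 (25.0%), against 10.3% of all windows. CCAAT was in 20 of 44 (45.5%), against 34.6%, and TTTGAA, the cell cycle homology element, was in 3 of 44 (6.82%), against 15.2%. These shares are descriptions without a test, and a match is not a measured binding site.

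In MIA PaCa-2, 1E5 lowered members of the BRCA1 group, the strand exchange group, the Fanconi group and the helicases and nucleases, while the kinases ATM and ATR and parts of the break sensor were higher. BRCA1 (ENSG00000012048, chromosome 17, 43044295 to 43170245, minus strand, GRCh38), a ubiquitin ligase and scaffold that directs breaks to recombination, had 23.1, 25.2 and 17.0 CPM with 1E5, against 44.1, 37.6 and 41.8 CPM with DMSO. The groups did not overlap, and BRCA1 fell by 0.92 on the log2 scale (SE 0.17, edgeR adjusted p = 0.000819). BRIP1, a helicase that binds BRCA1, also fell, with a log2 fold change of −1.15 ± 0.34 (SE, edgeR adjusted p = 0.013), a call that was lost without 1E5 replicate 1 or without DMSO replicate 2 (highest adjusted p = 0.0906). PALB2, the bridge between BRCA1 and BRCA2, rose by 0.76 ± 0.19 (edgeR adjusted p = 0.0055). BRCA2 itself, which acts on the resected single strands, had 11.1, 13.4 and 9.81 CPM with 1E5, against 7.73, 14.2 and 8.99 CPM with DMSO. Its groups overlapped, and the log2 fold change was 0.13 ± 0.37 (edgeR adjusted p = 0.799). BARD1, the obligate partner of BRCA1, had −0.11 and no call.

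Of the 8 genes of strand exchange, 5 fell in MIA PaCa-2 and none rose. RAD51AP1 (chromosome 12, 4538798 to 4560048, plus strand), which stimulates strand invasion, had 8.48, 12.2 and 7.44 CPM with 1E5, against 33, 37.6 and 35.1 CPM with DMSO. RAD54B, a DNA translocase, had 4.06, 4.17 and 3.63 CPM with 1E5, against 14.97, 13.6 and 19.4 CPM with DMSO. Every 1E5 library lay below every DMSO library for both genes, with log2 fold changes of −1.91 ± 0.23 for RAD51AP1 (edgeR adjusted p = 4.04e-05) and −2.01 ± 0.48 for RAD54B (edgeR adjusted p = 0.00455). The RAD54B value is uncertain, since FSBP on the same strand had 3.63 ± 1.49 in this comparison, and reads of the overlap cannot be assigned from these counts. The related translocase RAD54L fell by 1.82 ± 0.27 on the log2 scale. XRCC3, which acts in strand exchange as XRCC2 does, fell by 1.75 ± 0.17. XRCC2 had 18.0, 20.4 and 11.9 CPM with 1E5, against 31.7, 38.8 and 20.02 CPM with DMSO. The XRCC2 groups overlapped in 1 pair of libraries, and its call (log2 −0.87 ± 0.28, edgeR adjusted p = 0.0212) was lost without 1E5 replicate 3, DMSO replicate 1 or DMSO replicate 2 (highest adjusted p = 0.123). The related genes RAD51B, RAD51C and RAD51D had log2 fold changes of 0.92, −0.57 and 0.14 and no call.

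Of the 9 Fanconi genes, 6 fell in MIA PaCa-2 and none rose. FANCD2 (ENSG00000144554, chromosome 3, 10026414 to 10101930, plus strand), the protein that receives ubiquitin at a crosslink, had 8.89, 10.1 and 7.06 CPM with 1E5, against 22.4, 22.6 and 21.8 CPM with DMSO. The groups did not overlap, with a log2 fold change of −1.36 ± 0.21 (edgeR adjusted p = 0.00019). Its partner FANCI fell by 0.96 ± 0.18. In the core complex that carries the ubiquitin ligase, FANCG had 8.63, 9.29 and 8.86 CPM with 1E5, against 32.5, 37.4 and 29.9 CPM with DMSO, and FANCA fell by 1.46 ± 0.22 on the log2 scale. For FANCG all 1E5 libraries were close together and well below all DMSO libraries (log2 −1.90 ± 0.19, edgeR adjusted p = 7.69e-06). FANCC, another core subunit, had −0.59 ± 0.17 (edgeR adjusted p = 0.0123), and its call was lost without 1E5 replicate 1 or DMSO replicate 1 (highest adjusted p = 0.0663). FANCM, the translocase that anchors the core complex to DNA, had −1.26 ± 0.34 (edgeR adjusted p = 0.00912), lost without DMSO replicate 2 (adjusted p = 0.0637). The ligase subunit FANCL and the subunits FANCE and FANCF had −0.00, −0.57 and 0.42 and no call.

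Among the 7 genes that dissolve, cut or resect DNA, 4 fell and 1 rose in MIA PaCa-2. EME1 (ENSG00000154920, chromosome 17, 50373220 to 50381483, plus strand), the partner subunit of the nuclease MUS81, had 3.32, 4.74 and 4.28 CPM with 1E5, against 20.1, 18.4 and 27.0 CPM with DMSO. RMI2, a subunit of the complex in which the helicase BLM takes apart double junctions, had 3.72, 4.06 and 3.02 CPM with 1E5, against 17.9, 13.9 and 13.6 CPM with DMSO. Both genes were far below DMSO in every 1E5 library, at log2 −2.39 ± 0.30 for EME1 (edgeR adjusted p = 4.12e-05) and −2.07 ± 0.21 for RMI2 (edgeR adjusted p = 9.91e-06). EXO1, an exonuclease that lengthens resected ends, had 14.6, 13.7 and 13.9 CPM with 1E5, against 37.2, 40.0 and 30.2 CPM with DMSO, and fell by 1.35 ± 0.28 on the log2 scale. BLM had −1.01 ± 0.29 (edgeR adjusted p = 0.0123), a call lost without DMSO replicate 1 or DMSO replicate 2 (highest adjusted p = 0.0661). RBBP8 (ENSG00000101773, chromosome 18, 22798261 to 23026488, plus strand), also named CtIP, which starts end resection, went the other way. It had 110, 99.9 and 87.1 CPM with 1E5, against 24.5, 38.5 and 28.1 CPM with DMSO. The groups were widely apart, and RBBP8 rose by 1.69 ± 0.21 (edgeR adjusted p = 4.15e-05), while MUS81 and the BLM partner RMI1 had 0.23 and 0.06 and no call.

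The break sensor and the checkpoint kinases were the role groups with more than 1 higher member in MIA PaCa-2, although CHEK2 fell. NBN, a subunit of the MRE11, RAD50 and NBN complex that binds broken ends, had 46.9, 39.6 and 42.5 CPM with 1E5, against 17.4, 23.2 and 14.5 CPM with DMSO. NBN rose by 1.21 ± 0.23 and RAD50, its long coiled-coil tether, by 0.94 ± 0.15, while the nuclease MRE11 had −0.01. ATM (ENSG00000149311, chromosome 11, 108222484 to 108369102, plus strand), the kinase activated at double-strand breaks, had 104, 107 and 96.8 CPM with 1E5, against 51.7, 58.4 and 43.2 CPM with DMSO. ATR, the kinase that answers single-stranded DNA, had 72.3, 79.6 and 65.2 CPM with 1E5, against 47.6, 59.3 and 40.0 CPM with DMSO. Neither kinase's groups overlapped, with log2 fold changes of 1.00 ± 0.24 for ATM (edgeR adjusted p = 0.00404) and 0.55 ± 0.19 for ATR (edgeR adjusted p = 0.0276). The ATR call was lost without 1E5 replicate 1, 1E5 replicate 2, DMSO replicate 1 or DMSO replicate 3 (highest adjusted p = 0.1). Of the checkpoint kinases that ATM and ATR phosphorylate, CHEK2 fell by 1.28 ± 0.20, and CHEK1 had −0.41 (edgeR adjusted p = 0.0877).

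In PANC-1, 1E5 lowered 4 of the 5 genes of the BRCA group, BRCA2 among them. BRCA2 (ENSG00000139618, chromosome 13, 32315474 to 32400266, plus strand) had 6.08, 4.44 and 7.31 CPM with 1E5, against 11.5, 13.6 and 17.6 CPM with DMSO. BRIP1 (chromosome 17, 61681266 to 61863521, minus strand) had 2.46, 2.75 and 3.29 CPM with 1E5, against 11.99, 13.3 and 15.6 CPM with DMSO. All 1E5 libraries were below all DMSO libraries for both genes, at log2 −1.26 ± 0.22 for BRCA2 (edgeR adjusted p = 0.00105) and −2.26 ± 0.19 for BRIP1 (edgeR adjusted p = 7.22e-06). BARD1 fell by 0.99 ± 0.14 on the log2 scale. BRCA1 had 20.3, 11.1 and 16.6 CPM with 1E5, against 27.9, 20.04 and 30.4 CPM with DMSO. The BRCA1 groups touched, since 1E5 replicate 1 exceeded DMSO replicate 2, and the call (log2 −0.71 ± 0.22, edgeR adjusted p = 0.0243) was lost without 1E5 replicate 2, 1E5 replicate 3, DMSO replicate 1 or DMSO replicate 3 (highest adjusted p = 0.0948). PALB2 had 0.12 and no call.

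Strand exchange genes held the largest fall of any member in PANC-1. XRCC2 (ENSG00000196584, chromosome 7, 152644779 to 152676165, minus strand), whose promoter is printed above, had 3.77, 1.06 and 2.98 CPM with 1E5, against 19.6, 15.7 and 22.2 CPM with DMSO. RAD54L (chromosome 1, 46247688 to 46278473, plus strand) had 3.69, 6.88 and 3.29 CPM with 1E5, against 21.3, 13.8 and 21.3 CPM with DMSO. Both pairs of groups were clearly apart, at log2 −2.87 ± 0.34 for XRCC2 (edgeR adjusted p = 7.29e-05) and −2.03 ± 0.31 for RAD54L (edgeR adjusted p = 0.000378). RAD51AP1 and XRCC3 fell by 1.16 ± 0.31 and 0.95 ± 0.21 on the log2 scale. RAD51B had 7.79, 9.23 and 7.20 CPM with 1E5, against 5.43, 3.98 and 4.58 CPM with DMSO, and was higher in all 3 libraries (log2 0.79 ± 0.21, edgeR adjusted p = 0.0114). Without DMSO replicate 2 the RAD51B call was lost (adjusted p = 0.0503). RAD51C, RAD51D and RAD54B had 0.29, 0.42 and −0.46 and no call.

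The Fanconi genes of PANC-1 split into 6 that fell, 1 that rose and FANCF and FANCG, which were not called. FANCD2 had 7.71, 12.96 and 8.59 CPM with 1E5, against 27.8, 15.9 and 24.8 CPM with DMSO, with no overlap and a log2 fold change of −1.23 ± 0.23 (edgeR adjusted p = 0.00169). FANCI fell by 1.67 ± 0.18, FANCA by 1.45 ± 0.21, FANCM by 1.11 ± 0.23, FANCL by 0.77 ± 0.16 and FANCC by 0.63 ± 0.11 on the log2 scale. FANCE, the core subunit that contacts FANCD2, had 9.41, 9.23 and 9.05 CPM with 1E5, against 8.29, 4.91 and 5.86 CPM with DMSO. Its DMSO libraries were widely spread, and the call (log2 0.54 ± 0.19, edgeR adjusted p = 0.039) was lost without 1E5 replicate 1, 1E5 replicate 3, DMSO replicate 2 or DMSO replicate 3 (highest adjusted p = 0.148). FANCG, which fell in MIA PaCa-2, had 25.8, 41.5 and 27.7 CPM with 1E5, against 35.9, 26.5 and 31.6 CPM with DMSO in PANC-1. These groups were interleaved, and the log2 fold change was 0.01.

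Of the helicases and nucleases, EXO1 had the largest fall in PANC-1. EXO1 (ENSG00000174371, chromosome 1, 241847967 to 241895148, plus strand) had 3.58, 3.15 and 3.21 CPM with 1E5, against 25.5, 14.3 and 22.1 CPM with DMSO. Its 1E5 libraries were close together and far below DMSO (log2 −2.63 ± 0.25, edgeR adjusted p = 1.6e-05). BLM, RMI1 and RMI2, which work as 1 complex with a topoisomerase, fell by 1.52 ± 0.24, 0.71 ± 0.13 and 1.82 ± 0.30 on the log2 scale. RBBP8 had 162, 151 and 178 CPM with 1E5, against 82.1, 77.1 and 88.9 CPM with DMSO, and so was higher in every 1E5 library, by 0.99 ± 0.10 (edgeR adjusted p = 2.19e-05). MUS81 rose by 0.41 ± 0.12 (edgeR adjusted p = 0.0177), a call lost without 1E5 replicate 1, 1E5 replicate 3, DMSO replicate 2 or DMSO replicate 3 (highest adjusted p = 0.0651). EME1 had 9.14, 9.5 and 8.01 CPM with 1E5, against 9.82, 7.18 and 11.7 CPM with DMSO, an overlap with a log2 fold change of −0.11.

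The kinases ATM and ATR were not called with 1E5 in PANC-1. ATM had 192, 235 and 217 CPM with 1E5, against 168, 269 and 249 CPM with DMSO (log2 −0.09 ± 0.18, edgeR adjusted p = 0.728). ATR had 96.4, 87.5 and 100 CPM with 1E5, against 96.0, 93.8 and 100 CPM with DMSO (log2 −0.03 ± 0.10, edgeR adjusted p = 0.838). Both kinases' groups overlapped, whereas CHEK1 and CHEK2 fell by 0.54 ± 0.14 and 0.69 ± 0.13 on the log2 scale. In the break sensor MRE11 fell by 0.55 ± 0.10, and NBN and RAD50 had −0.04 and 0.27 and no call. PANC-1 1E5 replicate 2 stood apart for several members, in both directions. RAD50 was lower in it, with 183 CPM against 303 and 324 CPM in the other 1E5 libraries. FANCG was higher in it, with 41.5 CPM against 25.8 and 27.7 CPM. Summed over the 36 genes, replicate 2 had 1030 CPM, against 1422 and 1464 CPM. These sums use the unscaled library total, unlike the single-gene values, so their gap also holds the difference in scaling. Without replicate 2, 27 members were called, 7 higher and 20 lower, and 24 of the 25 calls remained.

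**Figure D2:**
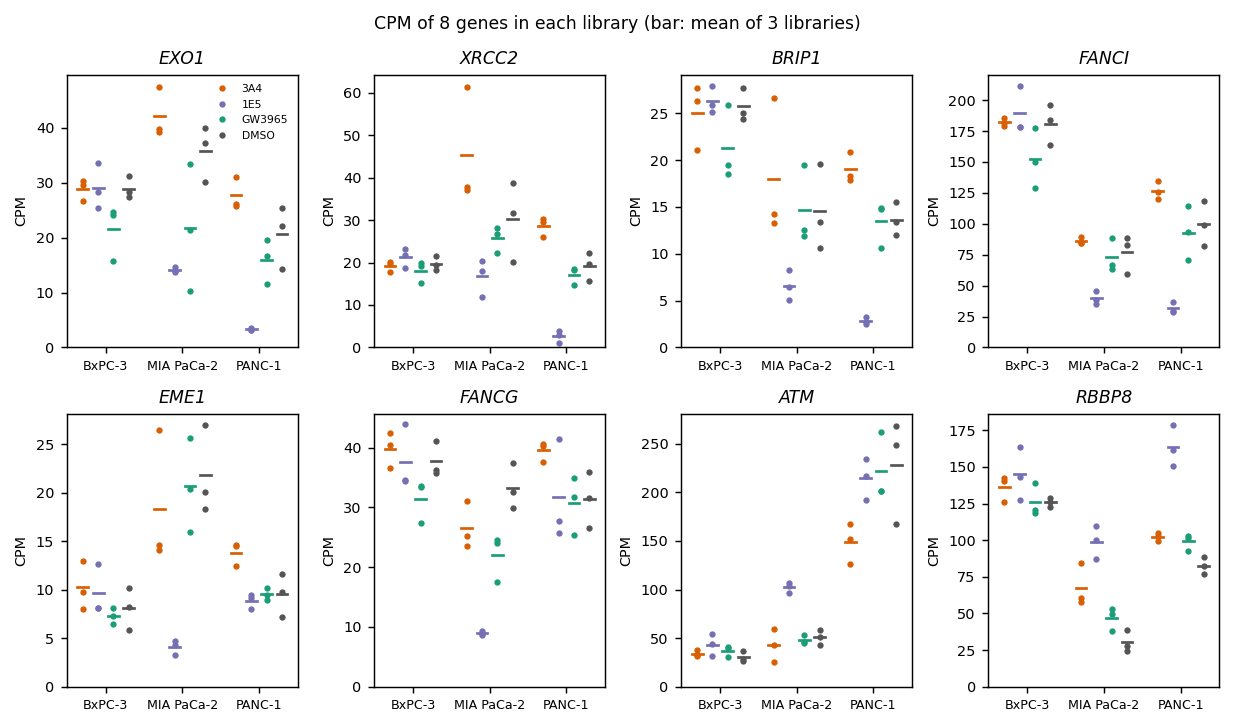
Level in CPM of 8 members in each library of each line, with 3A4, 1E5, GW3965 and DMSO side by side; points are libraries and bars are means of 3. EXO1, XRCC2, BRIP1 and FANCI are low with 1E5 in MIA PaCa-2 and PANC-1, FANCG and EME1 in MIA PaCa-2, and RBBP8 is high with 1E5 in both, while ATM is high with 1E5 in MIA PaCa-2.

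The called falls with 1E5 were set side by side in the 2 lines, which share no libraries. The 15 members lower in both were BRCA1, BRIP1, RAD51AP1, RAD54L, XRCC2, XRCC3, FANCA, FANCC, FANCM, FANCD2, FANCI, BLM, RMI2, EXO1 and CHEK2. They make up 83.3% of the 18 falls in MIA PaCa-2 and 71.4% of the 21 in PANC-1. Over all 15447 genes tested in both lines, 1261 were lower in both, 34.5% of the 3656 falls in MIA PaCa-2 and 41.3% of the 3053 in PANC-1. RBBP8 alone rose in both, which is 16.67% of the 6 rises in MIA PaCa-2 and 25.0% of the 4 in PANC-1. Over all genes tested in both lines, 1322 were higher in both. They make up 36.02% of the 3670 rises in MIA PaCa-2 and 40.22% of the 3287 in PANC-1. Of the members, 0 were called in opposite directions, and RAD51C, RAD51D and FANCF were called in neither. These last counts are given without an all-gene share.

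The size of the response was set against the line with the difference of log2 fold changes, PANC-1 minus MIA PaCa-2, in 1 fit of all 36 libraries, a contrast added after the data were seen. It was called for 20 of 36 members, 6 positive and 14 negative, where 28.4% of all genes were called, 12.1% positive and 16.3% negative, and the median difference over all genes was −0.14. EME1 (2.19 ± 0.35, edgeR adjusted p = 2.64e-05), FANCG (1.82 ± 0.24, edgeR adjusted p = 2.11e-06) and RAD54B (1.45 ± 0.50, edgeR adjusted p = 0.0309) were lowered more in MIA PaCa-2. XRCC2 (−2.08 ± 0.40, edgeR adjusted p = 0.000258), BRCA2 (−1.46 ± 0.42, edgeR adjusted p = 0.00917), EXO1 (−1.37 ± 0.36, edgeR adjusted p = 0.00468) and BRIP1 (−1.20 ± 0.36, edgeR adjusted p = 0.0131) were lower in PANC-1 relative to MIA PaCa-2. So were NBN (−1.32 ± 0.26, edgeR adjusted p = 0.000295) and ATM (−1.18 ± 0.32, edgeR adjusted p = 0.00621), which rose in MIA PaCa-2. The call of BRIP1 was lost without MIA PaCa-2 1E5 replicate 2 (adjusted p = 0.0509). That of RAD54B was lost when any library compared was left out, other than MIA PaCa-2 DMSO replicate 2, PANC-1 1E5 replicate 1 and PANC-1 1E5 replicate 2 (highest adjusted p = 0.0917). An F test with 2 degrees of freedom over all 3 lines called 30 of 36 members for 1E5, where 38.5% of all genes were called.

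**Figure D3:**
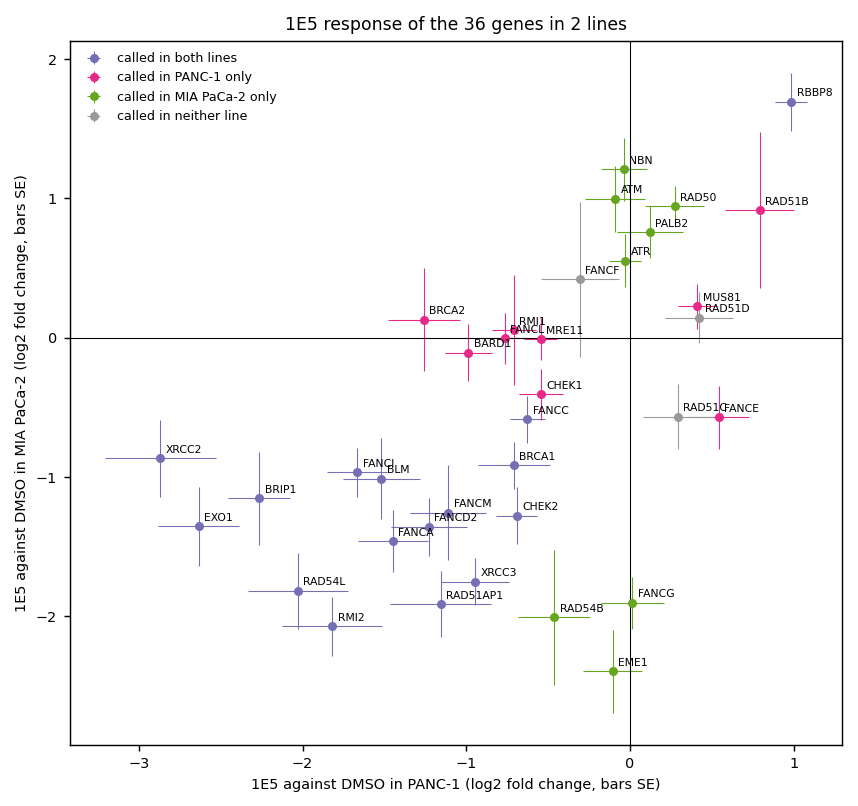
Log2 fold change with 1E5 against DMSO in PANC-1 (horizontal axis) and MIA PaCa-2 (vertical axis), 1 point per gene with SE bars, coloured by the lines in which the gene was called. Most points lie in the lower left, with EME1 and FANCG near 0 on the PANC-1 axis and low on the MIA PaCa-2 axis, ATM near 0 and high, and RBBP8 high on both.

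Relative to DMSO, 3A4 called few of these genes. In MIA PaCa-2, 1 of 36 was called, a rise, where 13.8% of all genes were called, 7.3% higher and 6.45% lower. RBBP8 had 57.6, 84.2 and 60.5 CPM with 3A4, against 24.5, 38.5 and 28.1 CPM with DMSO, and rose by 1.14 ± 0.21 with no overlap (edgeR adjusted p = 0.00624). In PANC-1, 2 of 36 were called, both higher, where 7.37% of all genes were called, 3.53% higher and 3.84% lower. FANCE had 12.2, 13.03 and 11.6 CPM with 3A4, against 8.29, 4.91 and 5.86 CPM with DMSO, and CHEK1 had 62.1, 62.9 and 76.7 CPM with 3A4, against 47.7, 43.6 and 50.9 CPM with DMSO. Both were higher in every 3A4 library, by 0.96 ± 0.19 for FANCE (edgeR adjusted p = 0.013) and 0.50 ± 0.14 for CHEK1 (edgeR adjusted p = 0.0459). The FANCE call was lost without 3A4 replicate 1, DMSO replicate 2 or DMSO replicate 3 (highest adjusted p = 0.0552), and the CHEK1 call when any of the 6 libraries compared was left out (highest adjusted p = 0.17). Without MIA PaCa-2 3A4 replicate 1 the count in that line was 3, and without PANC-1 3A4 replicate 1, DMSO replicate 2 or DMSO replicate 3 the count in PANC-1 was 0. DESeq2 called 4 members in MIA PaCa-2 cells and 6 in PANC-1. In the fit of all 36 libraries 8 members were called in MIA PaCa-2, 7 higher and 1 lower, where 3820 of 22132 genes were called, and a fit with the replicate number as a block called 4 in each line.

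BRCA1, BRCA2, FANCD2, ATM and ATR were not called with 3A4 in either line. In MIA PaCa-2, BRCA1 had 32.98, 39.8 and 31.2 CPM with 3A4, against 44.1, 37.6 and 41.8 CPM with DMSO, and FANCD2 had 23.4, 30.9 and 29.4 CPM with 3A4, against 22.4, 22.6 and 21.8 CPM with DMSO. BRCA2 had 12.5, 32.2 and 14.9 CPM with 3A4, against 7.73, 14.2 and 8.99 CPM with DMSO. The high BRCA2 value is that of 3A4 replicate 2, which also had the most ATM (25.5, 59.2 and 42.6 CPM with 3A4, against 51.7, 58.4 and 43.2 CPM with DMSO) and the most ATR (50.8, 78.4 and 60.5 CPM with 3A4, against 47.6, 59.3 and 40.0 CPM with DMSO). In PANC-1, BRCA1 had 38.0, 40.7 and 38.4 CPM with 3A4, against 27.9, 20.04 and 30.4 CPM with DMSO. BRCA2 had 20.1, 19.0 and 21.97 CPM with 3A4, against 11.5, 13.6 and 17.6 CPM with DMSO, and FANCD2 had 35.02, 34.1 and 34.4 CPM with 3A4, against 27.8, 15.9 and 24.8 CPM with DMSO. All 3 genes were above DMSO in every PANC-1 library, yet their log2 fold changes of 0.58, 0.52 and 0.60 did not pass (edgeR adjusted p = 0.13, 0.167 and 0.133). ATM had 126, 168 and 152 CPM with 3A4, against 168, 269 and 249 CPM with DMSO (log2 −0.62, edgeR adjusted p = 0.0632), and ATR had 96.7, 95.8 and 105 CPM with 3A4, against 96.0, 93.8 and 100 CPM with DMSO. The members' median log2 fold change with 3A4 in PANC-1 was 0.34, with 6 of 36 below 0, beside a median of 0.01 over all genes.

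Between the 2 compounds at the same dose and time, many members were higher with 3A4 than with 1E5. The comparison uses the 1E5 libraries again and is therefore not independent of 1E5 against DMSO. It covered 1 pair of compounds in 3 lines. In MIA PaCa-2, 21 of 36 members were called, 18 higher and 3 lower with 3A4, where 32.4% of all genes were called, 17.2% higher and 15.1% lower. In PANC-1, 25 of 36 were called, 23 higher and 2 lower, where 37.3% of all genes were called, 18.5% higher and 18.8% lower. Without PANC-1 1E5 replicate 2 the count was 28, 24 higher and 4 lower. In MIA PaCa-2 the largest differences were those of EME1, at 2.15 (95% interval 1.52 to 2.77), RAD54L, at 2.07, and RAD51AP1, at 2.00. In PANC-1 they were those of XRCC2, at 3.45 (95% interval 2.69 to 4.20), EXO1, at 3.06, and BRIP1, at 2.74.

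By role, the members higher with 3A4 than with 1E5 numbered 2 of 5 in the BRCA group in MIA PaCa-2 and 4 of 5 in PANC-1. For strand exchange they were 5 of 8 in each line, and for the Fanconi genes 6 of 9 in each line. EME1 had 26.4, 14.6 and 14.1 CPM with 3A4, against 3.32, 4.74 and 4.28 CPM with 1E5 in MIA PaCa-2. XRCC2 had 30.3, 29.4 and 26.1 CPM with 3A4, against 3.77, 1.06 and 2.98 CPM with 1E5 in PANC-1. No 3A4 library reached down to the 1E5 range for either gene. ATM was lower with 3A4, with a log2 difference of −1.26 (95% interval −1.77 to −0.76, edgeR adjusted p = 0.00132) in MIA PaCa-2 and of −0.53 ± 0.18 (edgeR adjusted p = 0.0401) in PANC-1. The PANC-1 call of ATM was lost without 1E5 replicate 2, 1E5 replicate 3, 3A4 replicate 1 or 3A4 replicate 3 (highest adjusted p = 0.145). RBBP8 was lower with 3A4 in PANC-1, at −0.68 ± 0.10 (edgeR adjusted p = 0.000289). In MIA PaCa-2 it had −0.55 ± 0.20 (edgeR adjusted p = 0.04998), a call that was lost when any compared library but 3A4 replicate 2 was left out (highest adjusted p = 0.208).

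**Figure D4:**
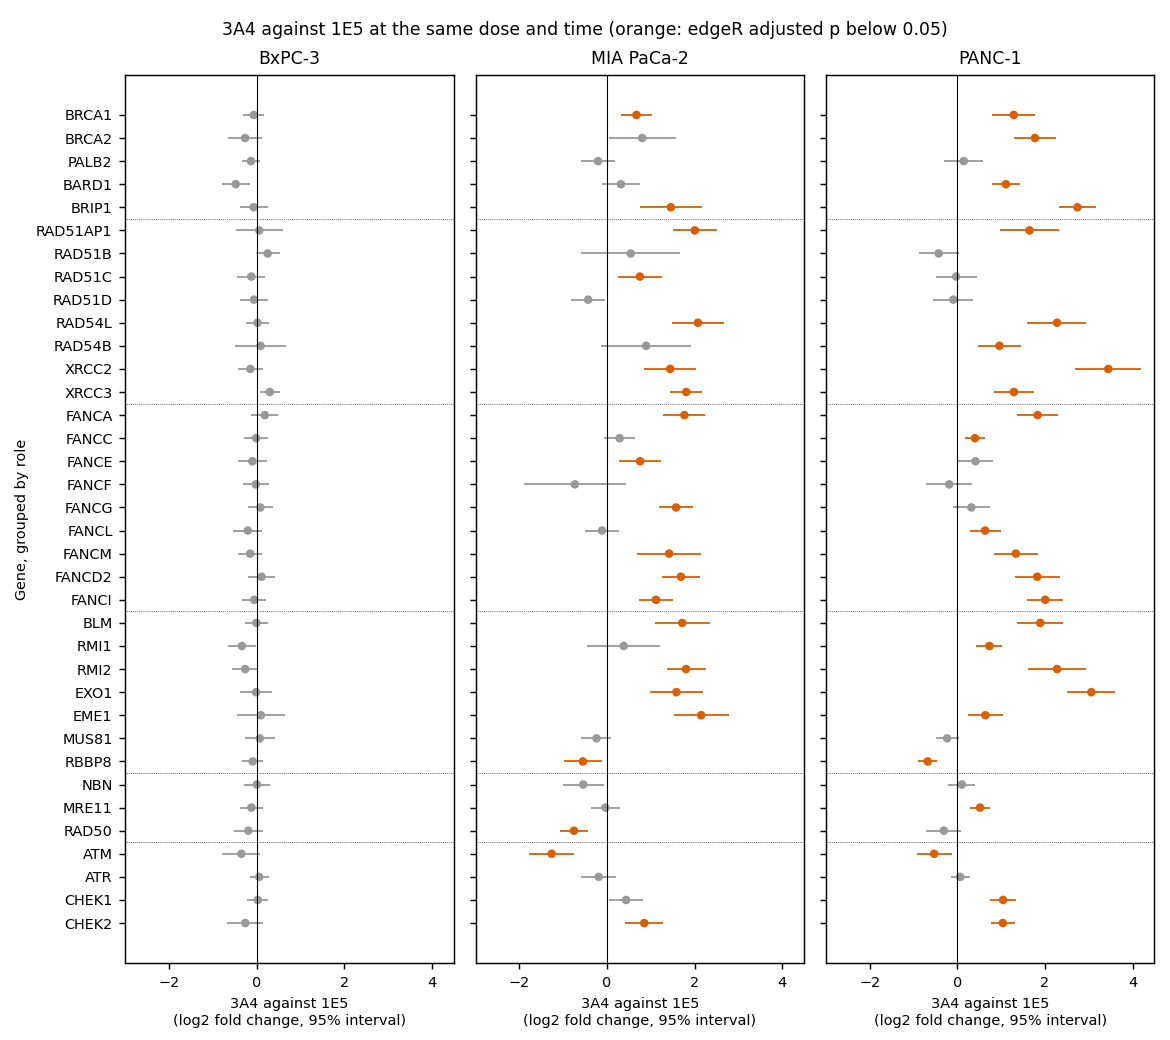
Log2 ratio of 3A4 against 1E5 for the 36 genes in each line, with 95% intervals; orange points passed edgeR's adjusted p of 0.05. In MIA PaCa-2 and PANC-1 most orange points lie right of 0, and in BxPC-3 no point is orange, with values between −0.48 and 0.30.

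In BxPC-3 no member was called with 1E5 or 3A4. With 1E5 against DMSO, edgeR called 0 of 36 members, where 0% of all genes were called, with 2 members at an unadjusted p below 0.05 and 0 calls by DESeq2 or limma-voom. The log2 fold changes ran between −0.20 and 0.50. With 3A4 against DMSO, edgeR called 0 members, where 0.0333% of all genes were called (0.0277% higher and 0.00554% lower), with 3 at an unadjusted p below 0.05 and 0 by the other tools. Between 3A4 and 1E5, edgeR called 0, where 0.144% of all genes were called (0.0887% higher and 0.0554% lower), with 3 at an unadjusted p below 0.05 and 0 by the other tools. EXO1, as an example, had 33.6, 25.4 and 28.3 CPM with 1E5, against 31.1, 27.3 and 28.3 CPM with DMSO, and XRCC2 had 21.9, 23.3 and 18.6 CPM with 1E5, against 21.5, 19.4 and 18.4 CPM with DMSO. Both genes' groups overlapped. Where these genes were called in the other lines, the differing response is that of the F test over lines given above.

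With the agonist GW3965, 1 member was called in BxPC-3, where 1.32% of all genes were called and 0.848% were lower. BLM had 33.5, 31.1 and 32.97 CPM with GW3965, against 49.4, 41.9 and 53.5 CPM with DMSO, and was lower in every library (log2 −0.57 ± 0.12, edgeR adjusted p = 0.0421). The call was lost when any of the 6 libraries but DMSO replicate 2 was left out. In MIA PaCa-2 edgeR called 0 members, where 0.523% of all genes were called (0.418% higher and 0.105% lower), with 7 at an unadjusted p below 0.05 and 0 by DESeq2 or limma-voom. In PANC-1 it called 0, where 0.0485% of all genes were called (0.0431% higher and 0.00539% lower), with 1 at an unadjusted p below 0.05 and 0 by the other tools. The F test over lines called 0 members for GW3965, where 0.104% of all genes were called, with 2 at an unadjusted p below 0.05, 1 by DESeq2 and 0 by limma-voom. For 3A4 that test called 2 members, FANCE and RBBP8, where 5.89% of all genes were called. Without MIA PaCa-2 3A4 replicate 1 that count was 6, and it was 1 without any 1 of BxPC-3 3A4 replicate 2, BxPC-3 DMSO replicate 1, BxPC-3 DMSO replicate 2, MIA PaCa-2 3A4 replicate 2, PANC-1 3A4 replicate 2, PANC-1 DMSO replicate 2 and PANC-1 DMSO replicate 3. Between PANC-1 and MIA PaCa-2 alone, the 3A4 response differed for 1 member, RBBP8 (−0.94 ± 0.22, edgeR adjusted p = 0.0135), where 5.08% of all genes were called, 1.16% positive and 3.93% negative. That call was lost without MIA PaCa-2 3A4 replicate 2 (adjusted p = 0.0706), and the count was 3 without MIA PaCa-2 3A4 replicate 1, and 2 without MIA PaCa-2 DMSO replicate 2 or PANC-1 DMSO replicate 1.

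The lines differed in their levels of these genes with DMSO alone. BxPC-3 against PANC-1 gave 28 called members, 24 higher and 4 lower, where 52.5% of all genes were called, 27.1% higher and 25.5% lower. BxPC-3 against MIA PaCa-2 gave 25, 20 higher and 5 lower, where 57.4% of all genes were called, 32.7% higher and 24.6% lower. MIA PaCa-2 against PANC-1 gave 23, 11 higher and 12 lower, where 51.2% of all genes were called, 21.7% higher and 29.5% lower. On the scaling of all 36 libraries, ATM had 30.0, 28.3 and 39.9 CPM in BxPC-3 and 48.9, 56.8 and 39.5 CPM in MIA PaCa-2, against 160.8, 260.1 and 239.0 CPM in PANC-1. Relative to PANC-1, ATM had a log2 difference of −2.75 ± 0.24 in BxPC-3 and −2.18 ± 0.24 in MIA PaCa-2, with no overlap. ATM was also called lower in BxPC-3 than in MIA PaCa-2 (log2 −0.57 ± 0.23, edgeR adjusted p = 0.037), although the libraries of these 2 lines overlapped. NBN had 110.9, 105.8 and 117.6 CPM in BxPC-3 and 16.4, 22.6 and 13.2 CPM in MIA PaCa-2, against 78.8, 82.4 and 82.0 CPM in PANC-1. MIA PaCa-2 was the lowest for NBN, and also for FANCF, at 4.42, 2.69 and 5.30 CPM, against 20.1, 19.2 and 18.2 CPM in PANC-1. CHEK2 had its highest level in MIA PaCa-2, with 66.2, 48.9 and 52.2 CPM, against 18.7, 15.9 and 18.1 CPM in PANC-1. RBBP8 was lower in MIA PaCa-2 than in PANC-1, with a log2 difference of −1.45 ± 0.16.

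**Figure D5:**
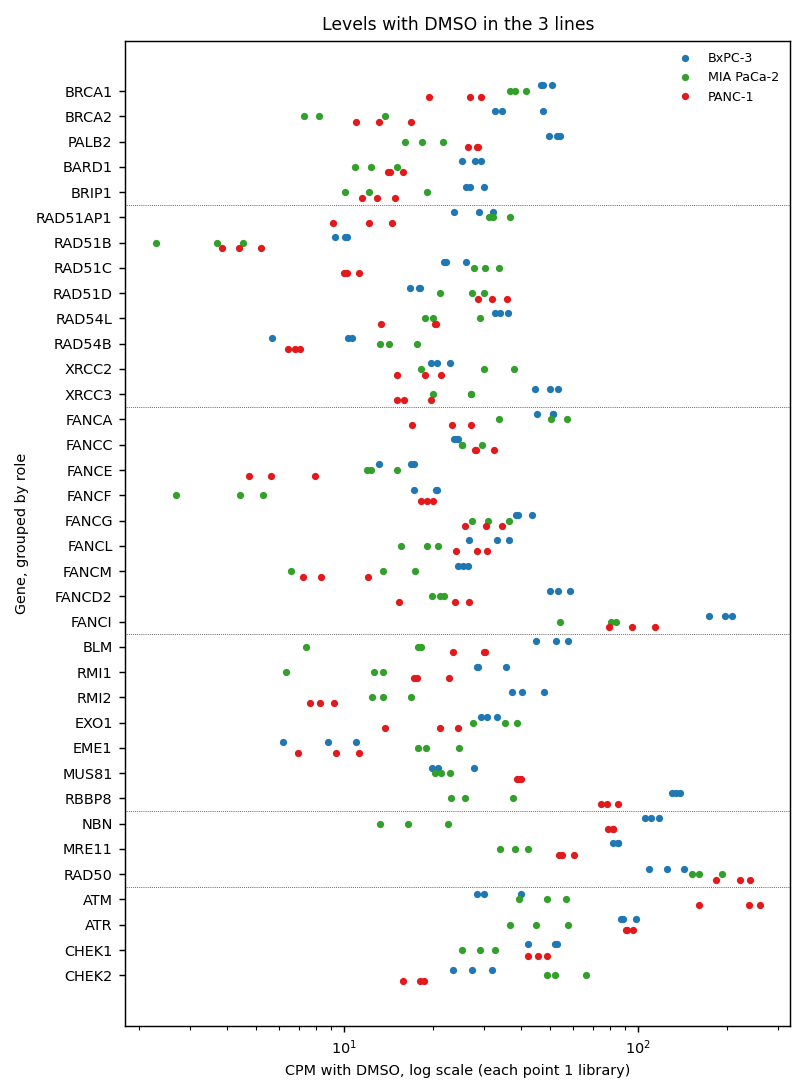
Level in CPM (log axis, scaling over all 36 libraries) of the 36 genes with DMSO in each of the 3 lines, each point 1 library. ATM stands highest in PANC-1, NBN and FANCF stand lowest in MIA PaCa-2, and CHEK2 stands highest in MIA PaCa-2.

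Further repair genes outside the 36, and genes of the cell cycle, were counted in the same fits. Of 42 other homologous recombination and Fanconi genes, 41 were tested in MIA PaCa-2 cells and 42 in PANC-1. With 1E5 against DMSO 8 rose and 11 fell in MIA PaCa-2, and 6 rose and 15 fell in PANC-1. Of all genes tested, 23.6% rose and 23.4% fell in MIA PaCa-2, and 19.7% rose and 19.3% fell in PANC-1. In MIA PaCa-2 the 8 and 11 of 41 lay near these shares, which also stand beside the lists that follow. FAAP100, a core complex partner, fell by 0.66 ± 0.17 in MIA PaCa-2 and by 1.69 ± 0.15 in PANC-1 on the log2 scale, and BABAM2, a subunit of the BRCA1-A complex, rose by 1.23 ± 0.16 and 0.58 ± 0.16 in these lines. Of 10 genes of non-homologous end joining, the route that rejoins ends without a template, 2 rose and 2 fell in MIA PaCa-2, and 2 rose and 4 fell in PANC-1. Of these, XRCC6, also named Ku70, had −0.65 ± 0.13 and −0.73 ± 0.13. Of 22 genes of mismatch and excision repair, 5 rose and 13 fell in MIA PaCa-2, and 6 rose and 5 fell in PANC-1. PARP1, the sensor of single-strand breaks, had −1.49 ± 0.11 in MIA PaCa-2 cells and −0.31 ± 0.11 in PANC-1, and DDB2, which recognises ultraviolet damage, had −1.43 ± 0.19 and 1.03 ± 0.31. The PANC-1 value of DDB2 leans on 1E5 replicate 2, since it had 19.4, 45.3 and 17.1 CPM with 1E5, against 13.7, 15.8 and 10.6 CPM with DMSO.

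Most genes of S phase and mitosis fell with 1E5 in MIA PaCa-2 and PANC-1. Of the 36 repair genes, 18 and 21 fell in these lines, and 6 and 4 rose. Of the 26 genes of S phase and mitosis, 24 fell with 1E5 in each of MIA PaCa-2 and PANC-1 and none rose. Of all genes, 23.4% and 19.3% fell. The 26 had medians of −1.96 and −1.84 on the log2 scale. Their summed level was 1194 to 1460 CPM with 1E5, against 3688 to 4820 CPM with DMSO in MIA PaCa-2, and 867.9 to 1080 CPM with 1E5, against 2310 to 3671 CPM with DMSO in PANC-1. With 3A4 against 1E5, 24 and 25 of the 26 rose in these lines, where 17.2% and 18.5% of all genes rose. MKI67, the proliferation marker, had −1.79 ± 0.22 with 1E5 in MIA PaCa-2 cells and −2.93 ± 0.34 in PANC-1. Of 15 p53 target genes, 11 rose and 1 fell in MIA PaCa-2, and 6 rose and 3 fell in PANC-1, with GADD45A at 2.75 ± 0.32 and 1.62 ± 0.19. The share of counts from mitochondrially encoded genes was 0.644% to 1.49% with 1E5, against 5.65% to 6.19% with DMSO in MIA PaCa-2, and 1.55% to 3.495% with 1E5, against 5.32% to 6.48% with DMSO in PANC-1. The part of these changes in the values of the repair genes was not tested.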

How the data were processed

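The deposited data are raw gene counts, whole numbers for 36 libraries in a single table. Column-purified total RNA (500 ng) was made into stranded libraries, per the labels' protocols. Per the submitters' processing notes, which give no roles or order, the tools were HISAT2 2.0.2, StringTie 1.3.1c, SAMtools 1.3 and Trim Galore 0.4.4, with the build GRCh38. Strand setting and annotation: not given in the sources used here. Of 58658 lines, 407 transcripts and 8 assembled loci were left out (at most 0.00396% of a library's counts).

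The 12 libraries of a line were fitted together with edgeR 4.0.16 (R 4.3.3), using a mean for each group, TMM scaling and filterByExpr (count minimum 10, total minimum 15). PANC-1 kept 18544 genes, MIA PaCa-2 kept 16254 and BxPC-3 kept 18042. Comparisons between lines used 1 fit of all 36 libraries over 22132 genes. The quasi-likelihood tests were two-sided, with Benjamini and Hochberg adjustment over all genes of the fit. CPM of single genes are counts divided by the TMM-scaled total, times 1000000. Summed levels of gene lists use the library total without TMM scaling. Apart from the ranking of marker genes of other cell types, CPM were not compared between genes. Totals, which set counting precision, are given with the samples. The code was tested on simulated data. Alternatives were RLE scaling, no filter, a replicate block, limma-voom (limma 3.58.1), DESeq2 1.42.0, only the compared groups, and leaving out each library. Added after seeing the data were the fit of all 36 libraries for within-line contrasts, the omission of the 2 shallowest MIA PaCa-2 libraries, and the contrast of responses between PANC-1 and MIA PaCa-2. Gene positions are from GENCODE release 29.

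The members and lists were chosen with earlier results of these data known. Values per library are given for BRCA1, BRCA2, FANCD2, ATM and ATR wherever a MIA PaCa-2 or PANC-1 comparison with DMSO called a member. They are also given for up to 4 called members with the largest change and no overlap, and for up to 3 members called in the less frequent direction. XRCC2 and EXO1 in MIA PaCa-2 and BxPC-3, FANCG and EME1 in PANC-1, and the genes described with DMSO were added after their values were seen.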

Additional observations from a re-analysis of the deposited data

Results flagged for a closer look

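The response to 1E5 differed among the 3 lines for 30 of the 36 genes, by the F test on the ligand by line interaction (edgeR's quasi-likelihood test, adjusted over all genes). In the BRCA group the adjusted p was 0.003613 for BRCA1, 0.002497 for BRCA2, 0.04176 for PALB2, 0.0006725 for BARD1 and 3.71e-05 for BRIP1. For strand exchange it was 0.000108 for RAD51AP1, 2.74e-05 for RAD54L, 0.004589 for RAD54B, 4.862e-06 for XRCC2 and 2.156e-05 for XRCC3. Among the Fanconi genes it was 0.0001228 for FANCA, 0.01997 for FANCC, 0.006867 for FANCE, 5.996e-07 for FANCG and 0.004419 for FANCL. It was 0.00471 for FANCM, 0.0001295 for FANCD2 and 6.915e-06 for FANCI. Among helicases and nucleases it was 0.001183 for BLM, 9.93e-06 for RMI2, 6.597e-06 for EXO1, 2.82e-06 for EME1 and 1.262e-05 for RBBP8. In the break sensor and kinases it was 0.000141 for NBN, 0.005912 for MRE11, 0.01447 for RAD50, 0.01446 for ATM, 0.02715 for ATR, 0.009341 for CHEK1 and 0.001154 for CHEK2. RAD51C was not called among all 3 lines but its 1E5 response differed between PANC-1 and MIA PaCa-2 (adjusted p = 0.04431), a call lost when any of 10 libraries was left out.

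For 3A4 the same F test called FANCE (adjusted p = 0.02436) and RBBP8 (adjusted p = 0.004366). FANCE had a log2 fold change of 0.96 in PANC-1, against 0.18 in MIA PaCa-2 and −0.11 in BxPC-3, and RBBP8 had 1.14 in MIA PaCa-2, 0.31 in PANC-1 and 0.11 in BxPC-3.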

How the results depend on the processing

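No call on a member changed direction under any alternative. Of the 53 calls against DMSO, 53 remained under RLE scaling, under DESeq2 and with a replicate block, 49 without the count filter, 52 under limma-voom, 49 when the fit held just the compared groups, and 50 when it held all 36 libraries. The replicate numbers were not taken as pairs, since in none of the 12 comparisons did all 3 same-numbered correlations exceed 0.1. In 6 of the 12 all 3 exceeded every differently numbered pair, which is a hint from the data and leaves a shared source possible. The small counts moved most, and the cause was not tested. With GW3965 in BxPC-3 the count of 1 was 0 without the filter, in the fit of just the compared groups, in the fit of 36 libraries and under limma-voom. With 3A4 in MIA PaCa-2 the count of 1 was 4 with the replicate block, 4 under DESeq2, 8 in the fit of 36 libraries, 2 in that of just the compared groups and 2 when the 2 shallowest libraries were omitted. With 3A4 in PANC-1 the count of 2 was 1 without the filter, 4 with the replicate block, 6 under DESeq2 and 4 with only the compared groups. Among lines, the GW3965 count of 0 was 1 under DESeq2, and the 3A4 count of 2 was 1 without the filter and 7 under DESeq2. For PANC-1 against MIA PaCa-2 the 3A4 count of 1 was 2 under RLE scaling, 3 with the replicate block and 7 under DESeq2.

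Leaving out 1 library at a time gave 20 to 23 members for MIA PaCa-2 with 1E5, 22 to 27 for PANC-1 with 1E5, 1 to 3 for MIA PaCa-2 with 3A4 and 0 to 2 for PANC-1 with 3A4. It gave 18 to 22 and 23 to 28 for 3A4 against 1E5 in MIA PaCa-2 and PANC-1, and 0 to 1 with GW3965 in BxPC-3. Among lines it gave 28 to 31 for 1E5 and 1 to 6 for 3A4, and for PANC-1 against MIA PaCa-2 15 to 20 and 0 to 3. With DMSO it gave 24 to 27 for BxPC-3 against PANC-1, 20 to 24 for MIA PaCa-2 against PANC-1 and 22 to 23 for BxPC-3 against MIA PaCa-2. The remaining comparisons, GW3965 in MIA PaCa-2, in PANC-1 and among lines, and 1E5, 3A4 and 3A4 against 1E5 in BxPC-3, stayed at 0. Depth in MIA PaCa-2, lowest with GW3965 and DMSO, limits the precision there.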
